A study of Homo sapiens with 2 samples.

Results

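The genes of chromatin remodelling complexes were examined for peak summits of WSTF, the bromodomain protein encoded by BAZ1B, in SW620, an established human colorectal cancer line that was grown from a lymph node metastasis. The 55 member genes were taken by name from the families ISWI (11 genes), BAF and PBAF (25), CHD (9) and INO80 with SRCAP and EP400 (8), plus the ATPase genes ATRX and HELLS. All 55 matched a gene of the RefSeq GRCh38.p14 table by symbol, among 19974 protein-coding genes on the chromosomes that carried summits. A member was counted when a summit fell inside it or at most 1 kb outside.

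The series held 2 samples of chromatin immunoprecipitation with sequencing (ChIP-seq) from SW620 cells, 1 titled with the suffix IP and 1 without, both with colon as tissue. Its design text names an anti-WSTF antibody, an input DNA control and cells that overexpress WSTF, while its title names a knockdown of WSTF. The level of WSTF in the cells therefore cannot be told from the sources. A single list of 2697 summits was analysed. The labels do not say which of the samples the list came from or whether either sample is the input, so the summits are called WSTF summits on the strength of the design text alone. It carries no replicates and no read counts, so the depth is unknown, no test between samples could be made, and the absence of a summit does not show the absence of WSTF.

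Chromatin remodellers are protein complexes built around an ATPase that slides, evicts or exchanges nucleosomes. In the ISWI family the ATPase SMARCA5 or SMARCA1 works with a large regulatory subunit. WSTF with SMARCA5 forms the WICH complex, which is known from replicating chromatin and transcribed ribosomal DNA. BAF and PBAF are the human SWI/SNF complexes and are frequently mutated in cancer. CHD proteins carry chromodomains, and CHD3, CHD4 and CHD5 are the ATPases of the NuRD complex. INO80, SRCAP and EP400 are linked to the exchange of the histone variant H2A.Z.

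Summits were found at 16 of the 55 genes (29.1%, exact Clopper-Pearson 95% interval 17.6 to 42.9, for counting error only). Over all protein-coding genes the share was 13.8%. The 16 genes held 18 summits: BAZ1B and BAZ2B had 2 each and the others 1. ISWI genes carried a summit at 5 of 11 (45.5%, 16.8 to 76.6) and BAF and PBAF genes at 9 of 25 (36%, 18.0 to 57.5). CHD genes had 2 of 9 (22.2%, 2.81 to 60.0), INO80, SRCAP and EP400 genes 0 of 8 (interval to 36.9%) and ATRX and HELLS 0 of 2. The intervals of the complexes overlapped, and no difference between complexes was tested. With summits strictly inside a gene alone, 8 of 55 members (14.5%) counted, against 8.15% of all protein-coding genes. No interval was computed for that count, and its difference from the share of all genes was not tested.

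**Figure D1:**
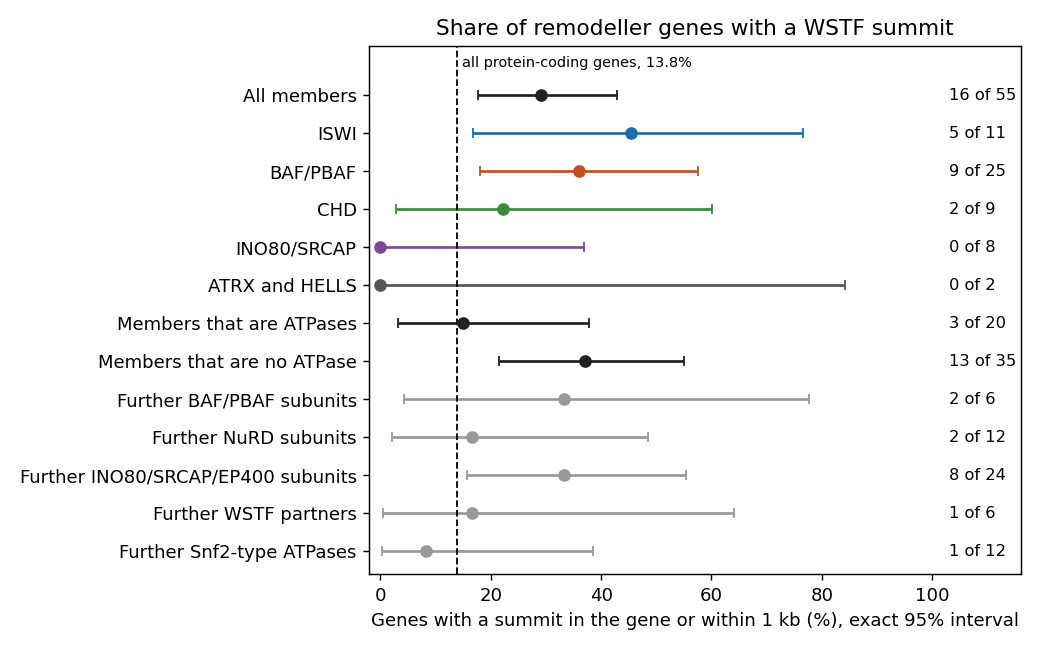
Percent of genes with a summit inside or at most 1 kb outside (x axis) for the members, their complexes, ATPase and other members (black and coloured) and further remodeller genes (grey). Points are shares, bars exact 95% intervals, and the dashed line the 13.8% of all protein-coding genes; ISWI (5 of 11) and BAF/PBAF (9 of 25) lie to its right and INO80/SRCAP (0 of 8) at zero.

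The members are long genes, with a median of 68118 bp against 24170 bp over all protein-coding genes, so the counts were also read by length. Among genes under 20 kb, 3 of 8 members (37.5%) and 11.9% of all genes had a summit. From 20 to 100 kb it was 7 of 28 members (25%) against 16.3%, and at 100 kb or longer 6 of 19 (31.6%) against 13.6%. The members' share was above that of all genes in each length class, but each exact interval covered the share of all genes. From the shortest class to the longest, the intervals were 8.52 to 75.5%, 10.7 to 44.9% and 12.6 to 56.6%. The part of gene length in the members' share was not tested. Counting the 1 kb around either gene end and leaving out the gene body gave 14 of 55 members (25.5%) against 11.6% of all genes.

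Annotated starts, with their strand, were available for 44 members. BAZ1A, BPTF, CHRAC1, SMARCC1, SMARCC2, ARID2, ACTL6A, CHD5, CHD6, CHD7 and ATRX had no entry in the promoter table. Of the 44, 11 (25%) had a summit within 1 kb of a start, against 12.9% of the 15813 protein-coding genes in that table. The 11 genes held 13 such summits, at a median of 109 bp upstream of the member's own nearest start (from 349 upstream to 463 downstream). Upstream summits made up 9 of the 13 (69.2%), and 53.0% of all 1842 summits within 1 kb of a protein-coding start. The latter were measured from the nearest start of any protein-coding gene, so the 2 shares are not of like measure. Their difference was not tested.

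**Figure D2:**
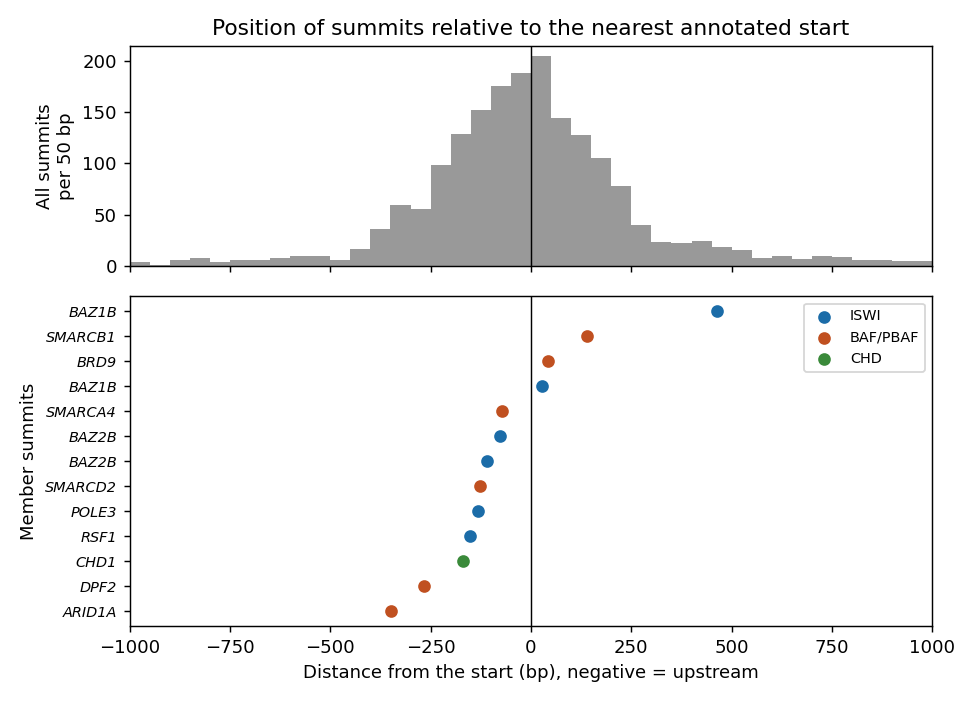
Signed distance in bp (x axis) from the nearest annotated start, of any protein-coding gene in the upper panel and of the member itself in the lower. The upper panel counts all 1842 summits within 1 kb of a protein-coding start in 50 bp bins, and the lower panel shows the 13 member summits; all but those of BAZ1B, SMARCB1 and BRD9 lie upstream.

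In the ISWI family, the carriers were regulatory and histone-fold subunit genes. BAZ1B (chromosome 7, 73440406 to 73522293, minus strand) had summits at positions 73522265 and 73521830, which lay 28 and 463 bp downstream of its start. Their scores were 1.73 and 3.02, where the score is the authors' −log10 q of a peak and the median of the whole list was 3.72. Both BAZ1B summits were therefore in the lower part of the list, at ranks 2595 and 1771 of 2697. The gene of the antibody's own target therefore carried summits, though none of a high score.

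BAZ2B, which encodes a bromodomain regulatory subunit of ISWI remodellers, had its summits at 2 alternative starts of the gene (chromosome 2, minus strand). At the outer start, position 159712520 lay 78 bp upstream with a score of 2.09. At the inner start, deep in the gene, position 159615674 was 96768 bp from the upper end and lay 109 bp upstream with a score of 1.73. That position also lay inside the annotated limits of the non-coding gene BAZ2B-AS1 (159615294 to 159618042). RSF1, the regulatory subunit of the RSF complex with SMARCA5, had a summit at chromosome 11 position 77820873 with a score of 4.04. It lay 151 bp upstream of the annotated RSF1 start, although 51359 bp inside the outer limit of the gene.

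CHRAC1 and POLE3 encode the pair of small histone-fold proteins that join SMARCA5 and BAZ1A in the CHRAC complex, and POLE3 is also a subunit of DNA polymerase epsilon. Both genes of the pair had a summit. The POLE3 summit (chromosome 9, position 113410505) scored 8.65, which was rank 80 of 2697 and the highest of the ISWI genes. It fell between alternative starts of POLE3, 131 bp upstream of the innermost one. The CHRAC1 summit scored 4.01 and lay 27 bp outside the gene's lower end (chromosome 8, position 140511295).

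The ATPases of the family and several regulatory subunit genes had no summit within 1 kb. SMARCA5 (chromosome 4) lay 39946643 bp from the nearest summit and SMARCA1 (chromosome X) 642625 bp. On these chromosomes 6.88% and 4.72% of protein-coding genes had a summit. The nearest summit lay 38233 bp from BAZ1A, the paralogue of BAZ1B, and 7720 bp from BAZ2A, the paralogue of BAZ2B and the regulatory subunit of the nucleolar remodelling complex NoRC. BPTF, the large subunit of NURF, was 9493 bp from a summit, and CECR2, the regulatory subunit of CERF, 188094 bp. Within 10 kb of the gene, BAZ2A and BPTF would have counted.

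The promoters of BAZ1B and of POLE3, the ISWI gene with the highest score, are shown as RefSeq gives them on GRCh38.p14, from 250 bases before the start to 50 from it onwards. Capitals mark matches, on either strand, to any of 8 short motifs. They are the CCAAT box, spelled CCAAT, the GC box, spelled GGGCGG, and the ETS factor motif, spelled CCGGAAG. A core of the NRF1 motif was spelled GCGCATGC, and the motif of YY1, itself a subunit of INO80, was spelled AAGATGGCG. The others are the E-box, spelled CACGTG, the TATA box, spelled TATAAA, and the cyclic AMP response element (CRE), spelled TGACGTCA. Each sequence reads 5′ to 3′ along the gene.
BAZ1B, chr7:73522244-73522543, minus strand: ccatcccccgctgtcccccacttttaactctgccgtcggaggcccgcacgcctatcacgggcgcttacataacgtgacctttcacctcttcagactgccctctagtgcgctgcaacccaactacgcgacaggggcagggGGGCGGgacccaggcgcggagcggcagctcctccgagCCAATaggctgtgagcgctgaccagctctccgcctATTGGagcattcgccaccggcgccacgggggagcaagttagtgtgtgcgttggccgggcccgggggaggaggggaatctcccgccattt
POLE3, chr9:113410325-113410624, minus strand: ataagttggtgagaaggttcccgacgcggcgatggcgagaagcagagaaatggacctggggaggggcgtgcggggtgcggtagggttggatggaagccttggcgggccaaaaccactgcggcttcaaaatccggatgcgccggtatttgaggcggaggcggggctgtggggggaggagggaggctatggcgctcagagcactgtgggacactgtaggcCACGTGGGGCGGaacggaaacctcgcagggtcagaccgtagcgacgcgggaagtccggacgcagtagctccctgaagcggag
In the BAZ1B window, a GC box 111 and CCAAT motifs 74 and 39 bases upstream of the start precede the summit at base 279. That summit scored 1.73. The higher-scoring BAZ1B summit (3.02), 463 bp downstream of the start, lies beyond the window. The POLE3 window, of the innermost start, has its summit at base 120 and an E-box joined to a GC box at bases 219 to 230.

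BAF and PBAF carriers included the ATPase SMARCA4 and subunits of the core. SMARCA4, known as BRG1, had a summit 71 bp upstream of its start (chromosome 19, position 10960959) with a score of 4.44. SMARCB1, a core subunit lost in rhabdoid tumours, had one 139 bp downstream of its start (chromosome 22, position 23787105) with a score of 5.14. For SMARCC1, a scaffold subunit, the summit lay 349 bp outside the upper end of the gene (chromosome 3, position 47782242) and scored 2.12. That of SMARCD2 was 126 bp upstream of the start (chromosome 17, position 63842811) and scored 3.63. Of these, SMARCA4 and SMARCB1 were above the median of the list, and SMARCD2 and SMARCC1 below it.

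The highest score among all members was that of DPF2, a double PHD finger subunit of canonical BAF. Its summit at chromosome 11 position 65333585 lay 267 bp upstream of the start and scored 13.2, rank 16 of 2697. ARID1A, the most often mutated BAF subunit gene in cancer, had a summit of low score (1.98) 349 bp upstream of its start (chromosome 1, position 26695666). The summit of its paralogue ARID1B scored 4.54 and was the exception in position: it lay deep in the gene, 244517 bp downstream of the nearest annotated start and 188884 bp from the upper end (chromosome 6, position 157021895). BRD9, which defines the non-canonical BAF complex, had a summit 42 bp downstream of its outer start (chromosome 5, position 892759) with a score of 5.86. ACTL6A, an actin-related subunit also found in INO80 and EP400 complexes, had one 174 bp inside its lower end (chromosome 3, position 179563100) at the median score of 3.72.

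None of the 4 genes specific to PBAF had a summit. The nearest was 82788 bp from ARID2, 84996 bp from PBRM1, 69812 bp from BRD7 and 9734994 bp from PHF10. Canonical BAF subunit genes had 3 of 5 (ARID1A, ARID1B and DPF2) and core subunit genes 3 of 7. Beside the 13.8% of all protein-coding genes, 0 of 4 is near the background, and with 4 genes the PBAF interval reached 60.2%, so no difference between the assemblies can be read from these counts.

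Several paralogous pairs had a summit at 1 gene of the pair, but ARID1A and ARID1B both had one and SMARCA5 and SMARCA1 had none. Whether paralogues differed was not tested. SMARCA2, the alternative ATPase BRM, lay 1308125 bp from the nearest summit. SMARCC2 was 9985 bp from one, SMARCD1 66418 bp and SMARCE1, which has no paralogue among the members, 870432 bp. Genes of subunits known from neural or muscle BAF assemblies had none within 1 kb: ACTL6B (306734 bp), DPF1 (75488 bp), DPF3 (820089 bp) and SMARCD3 (64623 bp). That group of 4 was put together after its values were seen, and 0 of 4 is again near the 13.8% of all genes. The ATPase-module genes BCL7A, BCL7B and BCL7C were 16622, 14091 and 28473 bp away, and the summit nearest to BCL7B was the BAZ1B summit at 73522265. SS18, a subunit found in BAF but not PBAF, was 4311331 bp from a summit on chromosome 18, where 4.44% of protein-coding genes had one.

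The promoters of the 4 BAF genes with the highest-scoring start summits are shown here.
DPF2, chr11:65333602-65333901, plus strand: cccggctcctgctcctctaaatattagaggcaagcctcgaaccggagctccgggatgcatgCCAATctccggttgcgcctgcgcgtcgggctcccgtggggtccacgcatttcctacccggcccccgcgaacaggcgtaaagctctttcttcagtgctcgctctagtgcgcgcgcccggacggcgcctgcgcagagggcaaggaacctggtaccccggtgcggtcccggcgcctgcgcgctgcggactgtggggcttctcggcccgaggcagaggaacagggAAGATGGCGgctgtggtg
BRD9, chr5:892752-893051, minus strand: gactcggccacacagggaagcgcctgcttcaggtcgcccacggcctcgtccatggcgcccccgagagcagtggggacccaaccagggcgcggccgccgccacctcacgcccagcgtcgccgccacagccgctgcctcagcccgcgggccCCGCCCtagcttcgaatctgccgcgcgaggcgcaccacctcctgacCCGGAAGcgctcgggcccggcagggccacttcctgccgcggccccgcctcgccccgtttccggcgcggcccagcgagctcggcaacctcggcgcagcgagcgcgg
SMARCB1, chr22:23786716-23787015, plus strand: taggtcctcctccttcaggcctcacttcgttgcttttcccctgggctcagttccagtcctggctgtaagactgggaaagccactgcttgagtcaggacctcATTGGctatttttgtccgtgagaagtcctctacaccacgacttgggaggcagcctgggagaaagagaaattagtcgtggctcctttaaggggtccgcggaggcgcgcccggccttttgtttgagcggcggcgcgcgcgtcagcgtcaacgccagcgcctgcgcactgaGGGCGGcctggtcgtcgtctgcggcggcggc
SMARCA4, chr19:10960780-10961079, plus strand: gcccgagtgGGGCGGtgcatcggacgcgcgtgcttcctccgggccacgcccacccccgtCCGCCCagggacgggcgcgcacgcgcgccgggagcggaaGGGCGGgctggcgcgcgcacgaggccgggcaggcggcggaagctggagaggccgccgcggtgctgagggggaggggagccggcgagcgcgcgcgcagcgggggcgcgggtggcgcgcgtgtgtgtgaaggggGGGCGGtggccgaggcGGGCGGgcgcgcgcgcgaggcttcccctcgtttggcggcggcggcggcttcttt
Of the windows printed, that of SMARCA4 was the richest in CG, with 55 CG dinucleotides, 81.3% G+C and GC boxes at 5 places, and its summit at base 180. DPF2 had a CCAAT motif at base 62 and a YY1 motif at base 283, with 33 CG dinucleotides and no GC box. Its summit lay 17 bases before the first base shown. BRD9 had an ETS motif 55 bases and a GC box 101 bases upstream of the start. SMARCB1 had 25 CG dinucleotides, a CCAAT motif on the opposite strand and a GC box 19 bases after the start.

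Among the CHD genes, CHD1 and CHD6 had summits. CHD1, which binds trimethylated H3K4 at active genes, had its summit 170 bp upstream of the start (chromosome 5, position 98929177) with a score of 6.37, rank 293. The position also lay inside the annotated limits of the non-coding genes CHD1-DT (98928562 to 99004021) and LOC100289230 (98929134 to 98931009). The CHD6 summit lay 64 bp outside the gene's upper end on chromosome 20 (position 41618441) and scored 5.57, rank 469. On chromosome 20, 27.2% of protein-coding genes had a summit, the highest share of the 23 chromosomes. The promoter of CHD1, the third by score among members with a start summit, is shown here.
CHD1, chr5:98928958-98929257, minus strand: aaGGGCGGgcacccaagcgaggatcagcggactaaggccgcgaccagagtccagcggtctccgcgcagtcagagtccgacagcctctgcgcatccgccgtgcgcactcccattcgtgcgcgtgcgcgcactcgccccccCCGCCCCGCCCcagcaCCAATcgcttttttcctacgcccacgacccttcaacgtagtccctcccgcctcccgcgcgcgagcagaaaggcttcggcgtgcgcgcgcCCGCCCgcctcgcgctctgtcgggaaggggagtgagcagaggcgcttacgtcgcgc
It has 44 CG dinucleotides, and its GC boxes at bases 140 and 145 share 1 base. The summit is at base 81.

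The remaining CHD genes had none within 1 kb. CHD2, the closest paralogue of CHD1, lay 90930 bp from a summit. For the NuRD ATPases the distances were 42752 bp for CHD3, 76020 bp for CHD4 and 19397 bp for CHD5. CHD7, CHD8 and CHD9, which belong to the subfamily of CHD6, were 26895, 1133133 and 176049 bp away. CHD7 is the gene of CHARGE syndrome.

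None of the 8 members filed under INO80, SRCAP and EP400 had a summit within 1 kb. ACTL6A, also found in INO80 and EP400 complexes, was counted under BAF and PBAF only, and it had a summit. The nearest summits lay 7341 bp from INO80B and 13763411 bp from INO80C, the latter on chromosome 18. The ATPase genes INO80, SRCAP and EP400 were 285981, 45476 and 64022 bp away. RUVBL1 and RUVBL2, the AAA+ ATPases shared by these complexes, were 526889 and 69154 bp away. ATRX, which deposits H3.3 with DAXX, was 5486193 bp from a summit on chromosome X, and HELLS, which is needed for DNA methylation at repeats, was 843173 bp away.

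**Figure D3:**
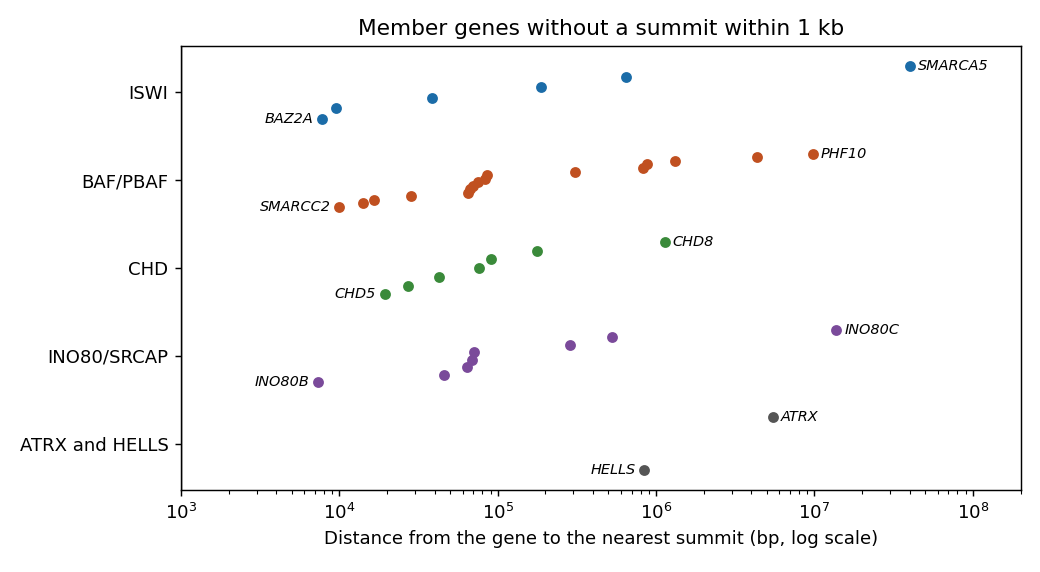
Distance in bp from each of the 39 members without a summit to the nearest one (x axis, log scale), by family, with the nearest and farthest gene of each named. Distances run from 7341 bp at INO80B to 39946643 bp at SMARCA5.

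For the 8 INO80, SRCAP and EP400 members, a count of 0 is near the 13.8% of all protein-coding genes. Its interval (to 36.9%) covers both that share and the share of their further subunit genes. Of 24 further INO80, SRCAP and EP400 subunit genes, 8 (33.3%, 15.6 to 55.3) had a summit. They were the actin-related genes ACTR5 and ACTR8, INO80D, the SRCAP subunit gene ZNHIT1, and KAT5, TRRAP, MBTD1 and MRGBP of the EP400 acetyltransferase complex. KAT5, its acetyltransferase, had a score of 9.12 at 145 bp upstream of a start, and ZNHIT1 one of 4.44. The ZNHIT1 summit lay inside PLOD3 and the MBTD1 summit inside UTP18, so neither can be assigned to the subunit gene alone. Members and further subunits together had 8 of 32 (25%, 11.5 to 43.4), against the 13.8% of all genes.

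Further genes of the other families were counted in the same way. BAF had 2 of 6 (SS18L1 and ACTB), and NuRD 2 of 12, HDAC2 and MTA2 (score 5.01). Further partners of WSTF had 1 of 6, the nuclear myosin gene MYO1C (4.91), and other Snf2-type ATPases 1 of 12, CHD1L (5.20). As shares these were 33.3%, 16.7%, 16.7% and 8.33%, beside the 13.8% of all protein-coding genes, and the last 3 lay near or below it. In all, 14 of 60 further genes (23.3%, 13.4 to 36.0) had a summit. Some of these summits cannot be assigned to the named gene alone. The CHD1L summit of 5.20 lay inside PRKAB2, and another summit inside CHD1L scored 2.24. The MYO1C summit lay inside LOC107984156 as well. PSMA7 was 354 bp from the SS18L1 summit and EML3 695 bp from the MTA2 summit.

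Sorted by role instead of by complex, ATPase members had 3 of 20 (15%, 3.21 to 37.9): SMARCA4, CHD1 and CHD6. The members that are no ATPase had 13 of 35 (37.1%, 21.5 to 55.1). The ATPase share was close to the 13.8% of all genes, and the intervals of the groups overlapped. The division is not independent of complex, since 9 of the 20 ATPases are CHD genes.

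Scores at members ran from 1.73 to 13.2. The median of the 18 summits was 4.03, against 3.72 over the whole list and over summits at protein-coding genes. Of the 18, 11 (61.1%) reached the median of the list, and 1388 of all 2697 summits did. The ACTL6A summit only equalled it. The difference between members and the list was not tested. BAF and PBAF summits had a median of 4.44 (n = 9), ISWI summits 3.02 (n = 7), and the CHD summits were 5.57 and 6.37. The 7 ISWI summits include 2 each of BAZ1B and BAZ2B, while the 9 BAF and PBAF summits come from 9 genes. The best summits of the 5 ISWI genes scored 2.09, 3.02, 4.01, 4.04 and 8.65. No difference between families was tested. Low values came from BAZ1B, BAZ2B, ARID1A and SMARCC1, and the values above 6 from DPF2, POLE3 and CHD1.

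**Figure D4:**
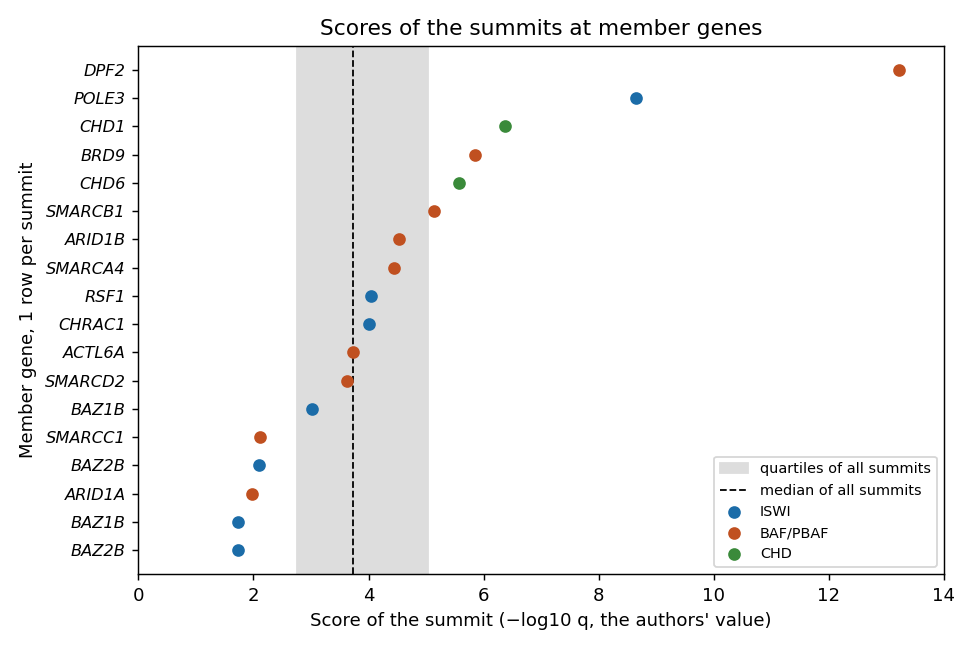
Score of each of the 18 member summits (x axis, the authors' −log10 q), sorted, with 1 row per summit and colour by family. The dashed line is the median of all 2697 summits (3.72) and the grey band their quartiles (2.76 to 5.04); DPF2 (13.2) and POLE3 (8.65) stand to the right of the others.

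Some member summits were shared with a neighbouring gene, so they cannot be assigned to the member alone. Another protein-coding gene lay within 1 kb of 5 of the 18 summits. RSF1 faces AAMDC, whose lower end was 271 bp away, and POLE3 faces C9orf43 at 242 bp. BRD9 is beside TRIP13, a meiotic and checkpoint ATPase gene, at 125 bp. The outer BAZ2B summit lay inside MARCHF7, and the ARID1A summit inside the predicted gene LOC124900417. Without summits shared in this way, 12 of 55 members counted, against 9.26% of all protein-coding genes, and the ISWI count fell from 5 to 3.

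The members were spread over 21 chromosomes, with few on each. Chromosome 12 held 7 members (BAZ2A, SMARCC2, SMARCD1, ARID2, BCL7A, CHD4 and EP400) and none had a summit, where 14.8% of its protein-coding genes had one. Chromosome 16 held 5 (BRD7, BCL7C, CHD9, INO80E and SRCAP), also with none, where the share was 23.9%. On chromosome 11 both members, RSF1 and DPF2, had one (20.9% of genes), as did both on chromosome 5, BRD9 and CHD1 (12.2%). The chromosomes named here were picked after their counts were seen. With so few members on each, no difference from the share of all genes can be read from them.

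Base composition moved with the summits across the genome. Over 22156 promoter windows of protein-coding genes, the median window with a summit within 1 kb of its start had 69.3% G+C and 31 CG dinucleotides, and the median window without had 61.3% and 19. Member windows had 67.7% and 32 with a summit (16 windows of 11 genes) and 65.3% and 24 without (51 windows of 35 genes). Windows of 1 gene can overlap. The part of base composition in which members carried a summit was not tested.

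The GC box was in 15 of the 16 member windows with a summit (93.8%) and in 34 of 51 without (66.7%). Its share was 79.9% of all windows with a summit and 56.3% of all windows. The CCAAT motif was in 4 of 16 (25%), against 35.4% of all windows with a summit and 34.7% of all windows. The ETS, YY1 and E-box motifs were in 1 window each (6.25%). Their shares were 20.5%, 4.75% and 12.3% of all windows with a summit, and 12.8%, 2.42% and 8.34% of all windows. The TATA, NRF1 and CRE motifs were in none of the 16. They were held by 3.35%, 7.79% and 3.70% of all windows with a summit, and by 9.46%, 3.74% and 2.26% of all windows. With so few windows these shares describe the 16 member windows, not all of which are printed here, and are no measure of factor binding.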

How the data were processed

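The submitters' processing notes name Trimmomatic 0.39, Bowtie2 2.4.4, MACS2 2.2.7.1 and the build hg38, and per the series' design text peaks were called against input DNA. Whether replicates were pooled is not stated in the labels. The deposited list holds 1 base per peak and a score that was read as −log10 of the q-value, because its smallest value (1.31) lies just above −log10 of 0.05. Scores were used only within the list.

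Summit positions were made 1-based and compared with the RefSeq GRCh38.p14 gene and promoter tables, which share the coordinates of hg38. The gene table gives outer gene limits without exons. Starts, strand and sequences came from the promoter table. Counts were made with Python 3.11.15, numpy 2.4.6 and pandas 2.3.3, and intervals with scipy 1.17.1. The counting in or near genes and at gene ends was tested on simulated summits. Other ways of counting, such as around annotated starts, were not. Counts are read beside the share over all protein-coding genes, with no test. All members with a summit are named. Of further genes, the 5 with the highest score have values. Printed promoters are BAZ1B and the 6 members with the highest-scoring summit within 1 kb of a start. The members, lists and motifs were chosen with earlier results of these data known.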

Additional observations from a re-analysis of the deposited data

How the results depend on the processing

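Each of the 5 counts (all members and 4 families) was recomputed under 10 alternatives, and of the 40 values for the 4 counts above 0, 34 stayed within 1.5 times the main count. The INO80, SRCAP and EP400 count of 0 could rise only under the wider windows, so its other values say nothing of stability. With summits inside the gene alone, 8 members (14.5%), 4 BAF and PBAF genes (16%) and 0 CHD genes counted, against 8.15% of all genes. At 10 kb, 1 INO80, SRCAP or EP400 gene (INO80B) counted, which is 12.5% against 17.8% of all genes. Around annotated starts, where fewer genes could be tested, 1 CHD gene counted (16.7%, against 12.9% of all genes). With only summits that reached the median score, 3 ISWI genes counted (27.3%, against 7.35% of all genes). Without summits near another protein-coding gene, an alternative chosen after seeing the data, 3 ISWI genes counted as well (27.3%, against 9.26%). The count of all members ranged from 8 to 20 over the alternatives, and the share of all protein-coding genes from 7.35% to 17.8%. The lowest values came from different settings: 8 members went with 8.15%, and 7.35% went with 11 members. No paired analysis was possible because the summit list has no replicates. The depth is unknown, which limits what a missing summit shows.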
